A study of Caenorhabditis elegans with 27 samples.

Results

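Black rice extract (BRE) was compared with the OP50 diet alone in whole worms at day 6, the end of the reproductive period. The comparison held 6 of the 27 libraries of the series, the 3 BRE and the 3 OP50 libraries of that day, chosen by the diet and day in their labels. It covered every gene that passed a filter on low counts, 19290 of the 46934 genes in the table. Both groups were wild-type N2 Caenorhabditis elegans on E. coli OP50 at 20 °C, placed on their diet as synchronized L4 larvae. The extract is the difference that the labels give between them. About 1000 worms went into a sample, so each value is an average over many animals and all their tissues. Per the labels, plates held no extract or 1.67, 1.04 or 0.42 mg/mL of it, and the concentration behind each library is not stated. They call the 3 libraries of a group biological replicates and do not say whether these came from separate populations, so the tests measure the spread between these samples.

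Black rice is rich in anthocyanins, plant pigments that are substrates of detoxification enzymes in animals. In the worm, foreign compounds and oxidants are known to act on glutathione S-transferases, cytochrome P450s and UDP-glucuronosyltransferases, in part through the transcription factor SKN-1, while the insulin receptor pathway and its transcription factor DAF-16 set stress resistance and life span. A hermaphrodite at the end of reproduction still has a large germline and makes yolk, but has used up its own sperm.

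The 6 libraries held between 133.83 and 164.34 M counts, and rRNA genes took between 0.0755% and 0.144% of them. All lists of markers for intestine, muscle, pharynx, neurons, hypodermis, germline and oocytes were detected, and transcripts of the major sperm proteins were close to absent, with a summed level between 0.387 and 2.91 CPM. The largest axis of variation among the 6 libraries, 30.5% of the variance, did not separate the diets and mainly followed the replicate number. On it replicate 1 of both diets lay at the negative end (-50.0 for OP50 and -20.5 for BRE) and replicate 3 at the positive end (53.0 for BRE), with replicate 2 between them at -10.8 and -5.68.

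At day 6, 3 genes passed the test, 0.0156% of the genes tested, and all 3 were higher with BRE: nlp-26, srlf-12 and W03G1.5. No gene was called lower with BRE by edgeR's quasi-likelihood test with Benjamini-Hochberg adjustment over all genes. At an unadjusted p under 0.05 there were 206 genes higher and 257 lower with BRE, 2.4% of genes in all. That is below the share of 0.05 expected at this threshold if no gene differed. DESeq2 called 13 genes (0.0674%) and a fit with the replicate number as a block called 4 (0.0207%), the same 3 and idpp-1. The median log2 difference of all genes, BRE minus OP50, was -0.04, and 41.3% of genes had a positive difference.

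**Figure D1:**
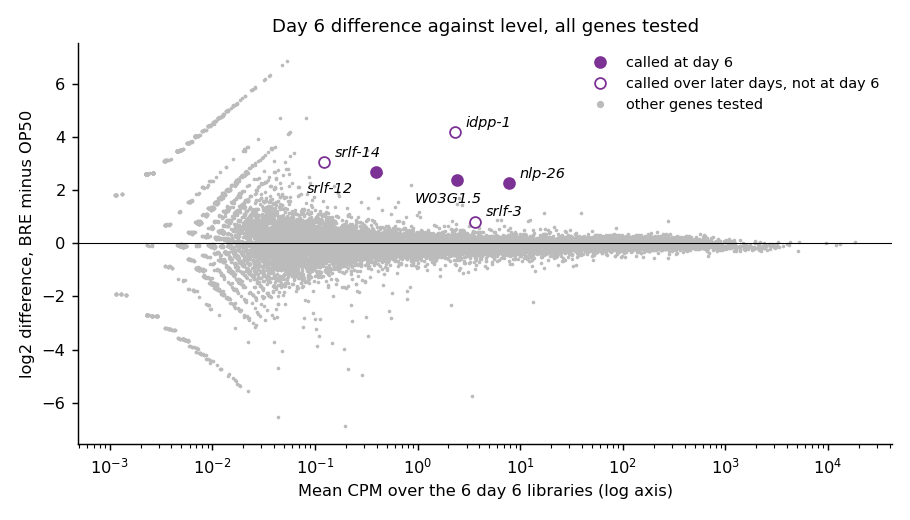
Log2 difference at day 6, BRE minus OP50, against the mean level in CPM over the 6 libraries on a log axis, for the 19290 genes tested. Filled circles are the 3 genes called at day 6 and open circles are the 3 genes called over days 11, 15 and 17 but not at day 6, and the spread of the grey points narrows as the level rises.

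Genes above 10 CPM for the most part differed little, as the plot of difference against level shows. Log2 differences had a median SE of 0.297, and the 95% interval lay inside a 2-fold change for 62.3% of all genes. The 62.3% includes 131 genes with no count in any of the 6 libraries, for which no difference could be measured. Among the 7016 genes above 10 CPM the share inside a 2-fold change was 96.9%, and among the 2785 genes above 100 CPM it was 99.2%. Intervals were wider for scarce genes, although the 3 genes called all lay below 10 CPM on average. Above 100 CPM the differences ran from -0.56, for srlf-1, to 0.85, for C17F4.7, and neither passed the test. Above 10 CPM, 4 genes had a fitted difference of 2-fold or more, ora-1, F57H12.6, spp-9 and cyp-35A3, and none of the 4 passed the test.

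nlp-26 encodes a neuropeptide-like protein. It lies at V:19613461-19614534 in WBcel235 and is protein-coding. Its levels were 11.3, 15.0 and 12.2 CPM in BRE replicates 1, 2 and 3 and 2.67, 3.03 and 2.25 CPM in the OP50 replicates. The groups stood well apart, with the lowest BRE library above all OP50 libraries. The log2 difference was 2.27 (SE 0.33, edgeR adjusted p = 0.00531), and each same-numbered pair gave a similar value, 2.07, 2.30 and 2.43. The end of the gene overlaps Y43F8C.3 on the opposite strand, and no source used here says whether reads were counted by strand. Y43F8C.3 itself measured 16.71 ± 0.913 CPM with BRE and 16.15 ± 1.58 CPM with OP50 (SD, n = 3), a log2 difference of 0.05 (SE 0.20).

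srlf-12 lies at IV:10891333-10892093 on the minus strand and was scarce. It had 73, 115 and 92 counts in the BRE replicates, or 0.497, 0.903 and 0.632 CPM, and 11, 20 and 9 counts in the OP50 replicates, or 0.0960, 0.154 and 0.0622 CPM. Every BRE library was above every OP50 library. Its log2 difference was 2.70 (SE 0.39, edgeR adjusted p = 0.00531). In the 3 same-numbered pairs it was 2.21, 2.44 and 3.07.

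W03G1.5, a protein-coding gene known by its sequence name, lies at IV:505069-506484. It measured 2.12, 7.43 and 2.80 CPM in the BRE replicates and 0.916, 0.754 and 0.664 CPM in the OP50 replicates. The groups did not overlap, and BRE replicate 2 was far above the other two. The log2 difference was 2.40 (SE 0.39, edgeR adjusted p = 0.0171), and 1.697 (adjusted p = 0.177) without BRE replicate 2. The pairs gave 1.196, 3.28 and 2.05.

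These calls rested on 3 libraries a group. In a fit of the 6 day 6 libraries alone none passed, and the edgeR adjusted p was 0.0535 for nlp-26 and 0.9999 for both srlf-12 and W03G1.5. Without OP50 replicate 1 or without OP50 replicate 3, no gene passed. Without OP50 replicate 1 the edgeR adjusted p was 0.0754 for both nlp-26 and srlf-12 and 0.115 for W03G1.5. Without OP50 replicate 3 it was 0.1315 for both nlp-26 and srlf-12 and 0.394 for W03G1.5. W03G1.5 also lost its call without OP50 replicate 2 (adjusted p = 0.167), as it did without BRE replicate 2. Over all 6 ways of leaving out a library, the log2 difference ran from 2.17 to 2.43 for nlp-26, from 2.43 to 3.14 for srlf-12 and from 1.697 to 2.735 for W03G1.5.

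The contrast averaged over days 11, 15 and 17 takes its means from libraries other than those of day 6, while the filter, the normalization and the estimated spread were shared by all 27 libraries, those of day 6 included. In that contrast 6 genes were called, 0.0311% of those tested, all higher with BRE: nlp-26, idpp-1, srlf-12, srlf-14, W03G1.5 and srlf-3. All 6 had a positive difference at day 6 and an unadjusted p under 0.05 there, set beside 41.3% of all genes with a positive difference and 1.07% with a positive difference at that p. In 5 of the 6, every BRE library at day 6 was above every OP50 library, which was so for 1.89% of all genes. srlf-3 was the exception. The 3 genes called at day 6 were all among the 6.

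**Figure D2:**
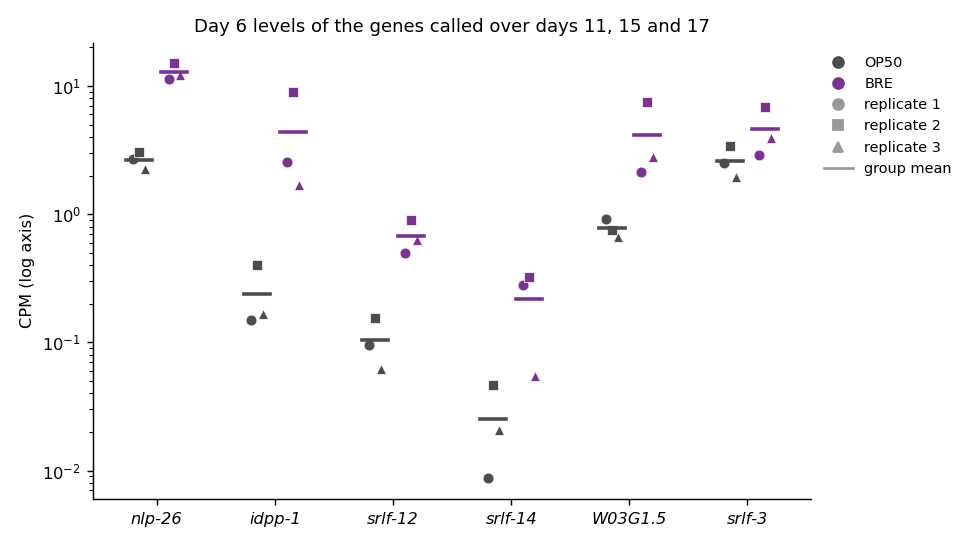
Level of the 6 genes in each day 6 library, in CPM on a log axis, with the replicate number as the symbol and the group mean as a line. The groups are apart for all genes but srlf-3, and replicate 2 is the highest BRE library for each of the 6 genes.

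idpp-1 at III:740682-742941 had the largest difference of the 6 at day 6. Its levels were 2.55, 8.89 and 1.68 CPM with BRE and 0.148, 0.400 and 0.166 CPM with OP50. The groups were far apart, although replicate 2 was the highest on both diets. Its log2 difference was 4.19 (SE 0.83) and missed the threshold, with an edgeR adjusted p of 0.158. With the replicate number as a block, the difference was 3.99 (SE 0.44) and passed, with an edgeR adjusted p of 0.0042. DESeq2 gave it an adjusted p of 1.779e-04. idpp-1 lies inside pat-12, which is on the opposite strand and measured 54.1 ± 3.54 CPM with BRE and 56.3 ± 9.04 CPM with OP50 (SD, n = 3), a log2 difference of -0.06 (SE 0.23).

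srlf-14 and srlf-3 had smaller counts or smaller differences at day 6. srlf-14, at IV:10893580-10894355, had 41, 41 and 8 counts in the BRE replicates and 1, 6 and 3 in the OP50 replicates. The third BRE library was thus only slightly above the highest OP50 library. The log2 difference was 3.05 (SE 0.88, edgeR adjusted p = 1). srlf-3, at IV:8487483-8488490, measured 2.92, 6.88 and 3.95 CPM with BRE and 2.50, 3.39 and 1.95 CPM with OP50. Its groups overlapped, since BRE replicate 1 was below OP50 replicate 2, and the log2 difference was 0.81 (SE 0.33, edgeR adjusted p = 1).

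**Figure D3:**
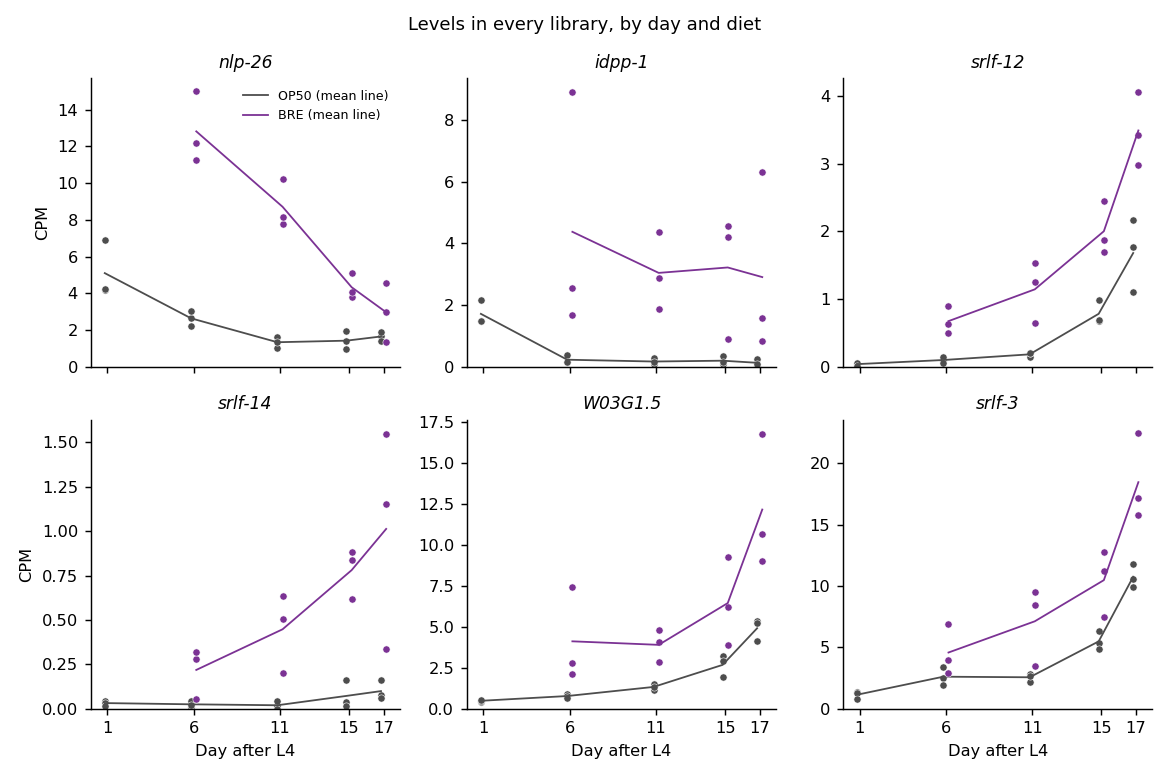
Level of the same 6 genes in all 27 libraries by day, in CPM, with a line through the mean of each diet. nlp-26 is highest at day 6 with BRE, and falls with age on both diets, whereas srlf-12, W03G1.5 and srlf-3 rise with age on both.

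Across days, the difference in nlp-26 was 2.27 at day 6 and 2.69, 1.59 and 0.84 at days 11, 15 and 17. For idpp-1 it was 4.19 at day 6 and 4.05, 3.93 and 4.37 at the later days. srlf-12 had 2.70, then 2.60, 1.35 and 1.05, and W03G1.5 had 2.40, then 1.55, 1.27 and 1.31. At day 11 alone 2 genes were called (0.0104%), both higher with BRE. Whether the day 6 difference was unlike the mean of the later days was tested for all genes, and none was called by edgeR. At an unadjusted p under 0.05 there were 512 of the 19290 genes, below the share of 0.05 expected if no gene differed, and DESeq2 called 6. The 2 with the smallest unadjusted p among the 6 genes were W03G1.5, at 1.03 log2 units larger at day 6 (unadjusted p = 0.0247, adjusted p = 0.9999 in edgeR's test), and srlf-12, at 1.03 larger (unadjusted p = 0.0257, adjusted p = 0.9999).

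The course of the 6 genes in control worms was not shared. Between days 1 and 17 on OP50, nlp-26 fell by 1.62 on the log2 scale (SE 0.32, edgeR adjusted p = 2.43e-04) and idpp-1 fell by 3.61 (SE 0.83, adjusted p = 9.12e-04). Over the same span srlf-12 rose by 5.24 (SE 0.45, edgeR adjusted p = 2.57e-09), W03G1.5 by 3.33 (SE 0.41, adjusted p = 5.01e-07) and srlf-3 by 3.23 (SE 0.36, adjusted p = 1.27e-07). srlf-14 had a difference of 1.58 (SE 0.89, adjusted p = 0.141). The genes higher with BRE at day 6 thus held members that fall and members that rise with age.

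The mean of nlp-26 in OP50 worms was 5.11 ± 1.56 CPM at day 1 and 2.65 ± 0.393 at day 6 (SD, n = 3), and all 3 BRE libraries of day 6 were above the highest day 1 library, at 6.91 CPM. For idpp-1 the OP50 mean was 1.72 ± 0.395 CPM at day 1 and 0.238 ± 0.141 at day 6, against 4.37 ± 3.94 with BRE at day 6. srlf-12 at day 6 with BRE, 0.677 ± 0.206 CPM, was near its OP50 mean of day 15, 0.785 ± 0.176 CPM.

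srlf-12, srlf-14 and srlf-13 are neighbours on the minus strand of chromosome IV, within 5280 bases, with no other annotated gene between them. srlf-13, at IV:10895225-10896612, had 20, 22 and 2 counts in the BRE replicates and none in the OP50 replicates. A count of 0 does not show that the transcript was absent. It was not called (edgeR adjusted p = 1). F13E9.15, the nearest tested gene on the side of srlf-12, had 602, 417 and 412 counts with BRE and 360, 432 and 309 with OP50, and its groups overlapped. On the side of srlf-13, F13E9.9 and F13E9.19 had between 0 and 2 counts in any day 6 library, and the groups of srlf-30 beyond them overlapped. Whether srlf genes are alike enough to share reads was not examined, and the sources used here do not say how shared reads were counted.

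Differences in the srlf class as a whole went both ways. Of its 36 gene IDs, 21 were tested, 11 had a positive and 10 a negative difference, and the median was 0.13 against -0.04 for all genes. All BRE libraries were higher in 3 of the 21 (14.3%), the 3 neighbours, and lower in 1 (4.76%). Over all genes these shares were 1.89% and 4.52%. At an unadjusted p under 0.05 in edgeR's test, 4 were higher, the 3 neighbours and srlf-3, and 1 was lower. Over all genes 1.07% were higher and 1.33% lower at that p. Its most abundant member, srlf-7, measured 386, 615 and 664 CPM with BRE and 544, 594 and 639 CPM with OP50. srlf-1 was the member whose BRE libraries, at 211, 215 and 242 CPM, were all below its OP50 libraries, at 371, 334 and 278 CPM. Its log2 difference of -0.56 (SE 0.26, edgeR adjusted p = 1) did not pass.

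nlp-26 also differed from most of its relatives. The nlp-24 to nlp-34 group includes peptides known as antimicrobial effectors of the epidermis, and 3 of its 11 tested genes had a positive difference, with a median of -0.39. nlp-27 measured 30.4, 38.7 and 49.7 CPM with BRE and 65.8, 65.0 and 54.5 CPM with OP50. All its BRE libraries were below the OP50 libraries, and the log2 difference was -0.64 (SE 0.30, edgeR adjusted p = 1). nlp-29, the member best known from fungal infection and wounding, measured 7.85, 19.1 and 26.1 CPM with BRE and 17.1, 25.1 and 24.6 CPM with OP50, and its groups overlapped. The median of the group was -0.01 without BRE replicate 1.

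Apart from idpp-1, the genes that DESeq2 called and edgeR did not were scarce. scl-25, of a family of secreted SCP-like proteins, measured 0.0681, 0.0235 and 0.0687 CPM with BRE and 0.611, 0.931 and 0.284 CPM with OP50. Its groups were apart, and the log2 difference was -3.47 (SE 0.79) with an adjusted p of 0.705 in edgeR and 0.00244 in DESeq2. cut-5, a cuticlin, measured 0.143, 0.0785 and 0.124 CPM with BRE and 0.366, 0.246 and 0.581 CPM with OP50, a log2 difference of -1.78 (SE 0.41) with an adjusted p of 0.722 in edgeR and 0.0155 in DESeq2. F41G3.20 measured 0.416, 1.33 and 0.522 CPM with BRE and 0.0960, 0.185 and 0.0830 CPM with OP50, with a DESeq2 adjusted p of 0.0283. Of the others, msp-36, msp-53 and msp-142 had counts in BRE replicate 3 alone, 11, 23 and 28, and col-156, K02E11.10 and ZK1025.3 had none in any BRE library and between 0 and 25 in the OP50 libraries.

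Among genes at 5 CPM or more in a group, with a 2-fold difference and groups apart, ora-1 and nlp-26 were the 2 higher with BRE. ora-1, named for an antigen of the parasite Onchocerca, measured 30.7, 60.2 and 69.6 CPM with BRE and 17.0, 28.6 and 27.5 CPM with OP50. The lowest BRE library was just above the highest OP50 library. Its log2 difference was 1.14 (SE 0.56, edgeR adjusted p = 1) at day 6, and 1.75, 2.33 and 1.03 at days 11, 15 and 17. The pseudogene WBGene00045175 met the same rule in the other direction, at 0.143, 0.110 and 0.117 CPM with BRE and 0.148, 9.63 and 10.2 CPM with OP50. OP50 replicate 1 was near the BRE libraries, and the edgeR adjusted p was 1.

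Glutathione S-transferases, which conjugate foreign compounds and oxidants, had mostly negative differences at day 6, and no member passed the test. Of 47 glutathione S-transferase genes, 9 had a positive difference, and the median was -0.31, against -0.04 for all genes. In 11 of the 47, or 23.4%, every BRE library was below every OP50 library, which was so for 4.52% of all genes. The median stayed below 0 with each library left out in turn, between -0.37 and -0.23. In sum these genes measured 416, 411 and 551 CPM with BRE and 571, 458 and 518 CPM with OP50, and the groups overlapped. At days 11, 15 and 17 the median of the list was 0.26, 0.15 and -0.25. gst-4, a much used readout of SKN-1, measured 4.298, 2.21 and 4.42 CPM with BRE and 6.50, 6.87 and 3.85 CPM with OP50, and its groups overlapped. gst-24 measured 2.13, 1.81 and 1.81 CPM with BRE and 2.82, 2.72 and 2.29 CPM with OP50, with the groups apart. The log2 difference of gst-24 was -0.45 (SE 0.24, edgeR adjusted p = 1). gst-1, the most abundant member, had -0.18 (SE 0.18).

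Other enzymes of the same system had medians closer to that of all genes. Of 74 cytochrome P450 genes 30 had a positive difference, with a median of -0.06. Every BRE library was below every OP50 library in 9 of them (12.2%) and above in 1 (1.35%). Over all genes these shares were 4.52% and 1.89%. Of 67 UDP-glucuronosyltransferases 29 had a positive difference, with a median of -0.02. All BRE libraries were lower in 2 of them (2.99%), against 4.52% of all genes. cyp-35A3, of a family known to respond to foreign compounds, measured 13.4, 4.9996 and 8.72 CPM with BRE and 32.1, 13.3 and 10.7 CPM with OP50, and its groups overlapped. Of 16 genes of the SKN-1 response 5 had a positive difference, with a median of -0.08. Superoxide dismutases, catalases and peroxiredoxins had a median of -0.15 over 11 genes, which was above 0 without OP50 replicate 1. sod-3, a DAF-16 target, measured 0.954, 0.958 and 0.804 CPM with BRE and 1.27, 1.28 and 0.844 CPM with OP50.

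Genes of stress and longevity pathways had small medians, with no member called. The 15 DAF-16 targets tested had a median of -0.10, with 4 positive. The insulin receptor and TOR pathway had 15 of 20 members positive and a median of 0.07, and the median stayed above 0 with each library left out, between 0.04 and 0.12. rict-1, a partner of the TOR kinase, had 0.19 (SE 0.16). Small heat shock proteins and chaperones had a median of -0.09 over 21 genes, and the mitochondrial unfolded protein response one of 0.00 over 11. hsp-6, the mitochondrial chaperone, measured 1267, 1294 and 1133 CPM with BRE and 1036, 1378 and 1136 CPM with OP50, and its groups overlapped.

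No member of the PMK-1, antimicrobial peptide or lysozyme lists passed edgeR's test. At its unadjusted p under 0.05, 2 of the 58 antimicrobial peptide genes were lower with BRE, against 1.33% of all genes. No other member of these lists was under that p. PMK-1 is the p38 kinase of intestinal immunity, and its 9 dependent genes had a median of -0.36 with 2 positive, and 2 (22.2%) with all BRE libraries lower, against 4.52% of all genes. The most abundant of them, sysm-1, measured 60.4, 70.6 and 104 CPM with BRE and 123.4, 102 and 110 CPM with OP50, and its groups overlapped. Antimicrobial peptide genes had a median of -0.15 over 58 tested, with 17 positive. All BRE libraries were lower in 6 of them (10.3%) and higher in 1 (1.72%), against 4.52% and 1.89% of all genes. Of 15 lysozyme genes, lys-1 and lys-2 (13.3%) lay lower in all BRE libraries and ilys-1 (6.67%) higher. lys-1 measured 140, 97.8 and 149 CPM with BRE and 189, 199 and 169 CPM with OP50, a log2 difference of -0.52 (SE 0.27, edgeR adjusted p = 1). ilys-1 was scarce, at 0.0409, 0.0471 and 0.0687 CPM with BRE and 0.0175, 0.0308 and 0.0277 CPM with OP50. The lysozymes together had 8 of 15 positive and a median of 0.04.

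**Figure D4:**
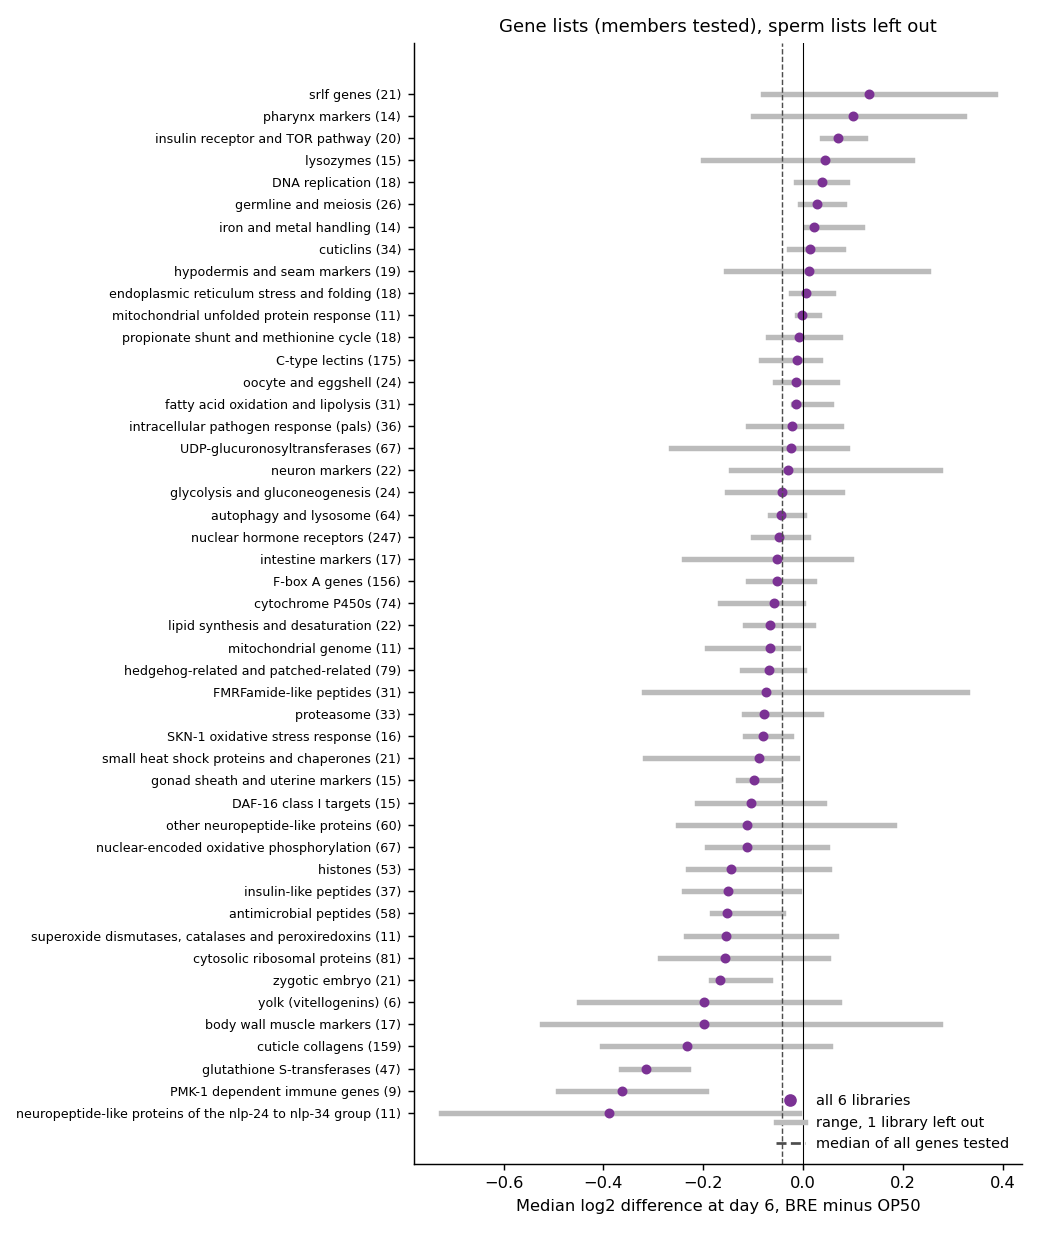
Median log2 difference at day 6, BRE minus OP50, of each gene list, with the number of members tested, and its range when 1 of the 6 libraries is left out as a grey bar. The 2 sperm lists are not drawn, and the dashed line is the median of all genes, -0.04.

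Reproduction, the main activity of worms up to this age, gave few differences. Yolk genes measured in sum 54770, 37060 and 35950 CPM with BRE and 38660, 51610 and 38760 CPM with OP50, and neither group was higher throughout. Of 26 germline genes 16 had a positive difference, with a median of 0.03, and of 24 oocyte and eggshell genes 12 did, with a median of -0.01. glp-1, the Notch receptor of germline stem cells, measured 427, 425 and 430 CPM with BRE and 350, 377 and 422 CPM with OP50. Its groups were just apart, with a log2 difference of 0.16 (SE 0.13, edgeR adjusted p = 1). In whole worms, fewer cells of a type and less RNA per cell cannot be told apart.

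Genes known from the zygotic embryo were measured too, and whether their transcripts came from embryos carried by the worms was not tested. Of 21 genes of the zygotic embryo 5 had a positive difference, with a median of -0.17. ceh-51, a homeobox gene of the early mesoderm, measured 0.463, 0.714 and 1.28 CPM with BRE and 1.501, 1.67 and 1.71 CPM with OP50. All BRE libraries were lower, with a log2 difference of -0.99 (SE 0.33, edgeR adjusted p = 1). On OP50 the mean of ceh-51 was 1.63 CPM at day 6 and 3.90, 3.39 and 2.56 CPM at days 11, 15 and 17. ceh-51 overlaps another annotated gene, and strand handling of the counts is not known. The number of embryos in each sample is not given, and its part in these values was not tested. The 28 major sperm protein genes tested had a median of 2.96, but their summed level was 0.429, 0.463 and 2.91 CPM with BRE and 0.864, 0.723 and 0.387 CPM with OP50. The high value was that of BRE replicate 3, and without it the median was 0.

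For growth and structural genes, the sign of a list's median changed with single libraries. Of 81 cytosolic ribosomal protein genes 1 had a positive difference, with a median of -0.16. In sum they measured 94340, 92410 and 84570 CPM with BRE and 126500, 94310 and 82920 CPM with OP50. The OP50 replicate 1 library was high and the other OP50 libraries lay within or below the BRE range, and the median was 0.05 without it. The 67 nuclear genes of oxidative phosphorylation had a median of -0.11, and 0.05 without the same library. Cuticle collagens had 43 of 159 positive and a median of -0.23, and 0.05 without it. col-121 was the collagen with the smallest p, at 0.361, 0.290 and 0.254 CPM with BRE and 0.541, 0.623 and 0.609 CPM with OP50, a log2 difference of -0.97 (SE 0.24, edgeR adjusted p = 1). Body wall muscle markers had 1 of 17 positive and a median of -0.20, which was 0.27 without OP50 replicate 2 and -0.52 without BRE replicate 2. Of the 49 lists, 12 had a median above 0 with all 6 libraries, and 28 without OP50 replicate 1.

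The age of the libraries was described with genes that change between days 1 and 17 on OP50, a contrast without day 6 libraries. It gave 3976 genes called at 4-fold or more, 20.6% of those tested, of which 2978 rose and 998 fell with age. At day 6 the risers had a median difference between BRE and OP50 of -0.01 and the fallers of -0.12. The mean log2 level of risers minus that of fallers served as an age index, which was between -6.83 and -6.59 in OP50 worms at day 1. At day 6 it was -4.70, -4.40 and -4.31 with BRE and -4.56, -4.68 and -4.50 with OP50. The groups overlapped, and the BRE libraries spanned a wider range that enclosed the OP50 libraries on both sides. At day 11 the index was -2.97, -3.14 and -3.25 with BRE and -2.77, -2.72 and -2.85 with OP50, with all BRE libraries lower. Medians of the fallers were 0.26, 0.31 and -0.03 at days 11, 15 and 17.

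**Figure D5:**
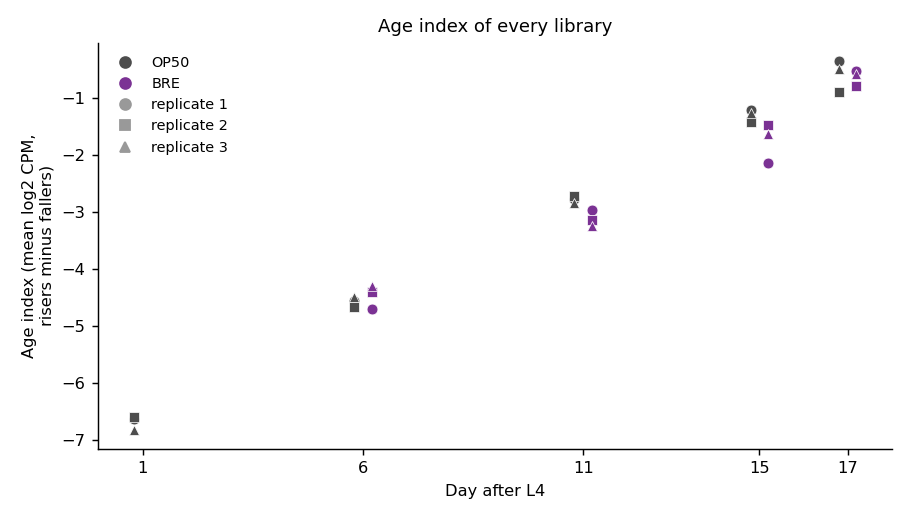
Age index of all 27 libraries by day, as the mean log2 CPM of genes that rise with age minus that of genes that fall with age on OP50. At day 6 the BRE libraries lie between -4.70 and -4.31 and overlap the OP50 libraries, between -4.68 and -4.50.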

How the data were processed

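RNA of whole worms was sequenced in 27 libraries. The values deposited by the authors are raw, unnormalized counts of reads per gene. The tools named per the submitters' processing notes are HISAT2 2.0.5, featureCounts, SAMtools 1.7, Trimmomatic and FastQC. Settings, strand handling, genome build and gene annotation were not given in the sources used here. Between 65.8% and 67.6% of counts from 1 to 20 in a day 6 library were even numbers, and a fragment may have been counted more than once.

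Tests used edgeR 4.0.16 in R 4.3.3 (TMM, filterByExpr with minimum count 10, quasi-likelihood fit of 9 group means over all 27 libraries), with a threshold of 0.05 on the Benjamini-Hochberg adjusted p. In each day 6 library 99.997% or more of the counts fell on tested genes. CPM are scaled by TMM. The script was tested on simulated data. Alternatives were DESeq2 1.42.0, RLE size factors, other filters, robust dispersion, the 6 libraries alone, a replicate block and leaving out each library. No 2 libraries of the same group were copies of one another, and libraries of different groups were not compared for this.

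Same-numbered BRE and OP50 libraries of day 6 deviated together (correlations 0.221, 0.194 and 0.307, the highest other being -0.0227), so the numbers may pair them. Deviations were taken from the mean of each group's 3 libraries, so positive same-number values draw the others below 0 on average. The main fit did not use the pairing, and the replicate block was the alternative that did.

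Of the gene IDs, 44113 had a symbol, and 46924 stood in the WBcel235 annotation, which gave coordinates. Mitochondrial genes were read from that annotation. The comparison and the 49 gene lists were chosen with earlier results of these data known. Genes were named if called by any of 3 fits at day 6 or over later days, if at least 5 CPM with a 2-fold difference and groups apart, or as a list's 2 most abundant members and the one with the smallest p. srlf-13, srlf-30, F13E9.15, C17F4.7, F57H12.6, spp-9, cyp-35A3, comt-5, scl-24, ilys-1, F13E9.9, F13E9.19 and the overlapping genes Y43F8C.3 and pat-12 were chosen after their values were seen. Sequences were not used here.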

Additional observations from a re-analysis of the deposited data

How the results depend on the processing

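At day 6 the number of genes called was 3. It was 0 with the 6 libraries alone, where 189 genes had an unadjusted p under 0.05, 13 with DESeq2, and between 0 and 3 with 1 library left out. Over days 11, 15 and 17 the 6 calls became 23 with DESeq2 and 10 with the replicate block, and the genes among them that were positive at day 6 numbered 19 and 9. The difference between day 6 and later days gave 0 calls, 6 with DESeq2 and between 0 and 1 with 1 library left out (1 without OP50 replicate 2). With the replicate block the day 6 count was 4, idpp-1 was added, and no other call at day 6 changed. No named gene changed direction while called. Among the values of named genes under the alternatives, 2008 kept their side of the threshold, 11 lost a call and 13 gained one. Of the list medians 618 moved by less than the spread and 19 by more. With 3 libraries a group, an exact permutation test of a single gene cannot go below p = 0.1.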

Other observations

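The following genes were chosen after their values were seen. comt-5, of a family of catechol O-methyltransferases, measured 1.98, 4.97 and 4.68 CPM with BRE and 0.995, 1.29 and 1.29 CPM with OP50 at day 6. All BRE libraries were above the OP50 libraries, and the log2 difference had a 95% interval from 0.79 to 2.61 (edgeR adjusted p = 1), with differences of 1.47, 0.87 and 0.52 at days 11, 15 and 17. The 5 comt genes tested had a median of 0.10, and comt-5 was the one with groups apart.

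scl-24, a relative of scl-25, measured 0.518, 0.400 and 1.21 CPM with BRE and 5.2002, 3.99 and 1.47 CPM with OP50. Its groups were apart, and the log2 difference was -2.32 (SE 0.61, edgeR adjusted p = 1) at day 6. Of 16 scl genes tested 6 had a positive difference, with a median of -0.17.

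spp-9, which encodes a saposin-like protein, measured 4.13, 3.29 and 6.57 CPM with BRE and 44.4, 6.16 and 14.6 CPM with OP50. OP50 replicate 1 was far above the others, and the groups overlapped. The log2 difference was -2.22 (SE 1.03, edgeR adjusted p = 1) at day 6 and 1.82 at day 11. F57H12.6 measured 9.51, 22.5 and 38.2 CPM with BRE and 4.83, 13.4 and 13.6 CPM with OP50, a log2 difference of 1.14 (SE 0.57, edgeR adjusted p = 1), and had 1.74, 2.05 and 0.64 at days 11, 15 and 17.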
